A study of Mus musculus with 5 samples.

Results

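The genes described here are 39 mouse genes that interferons induce, given as a list of symbols. A gene was measured by the probe set that names it alone, and by the one with the highest mean level where there were several. Of the 39 genes, 32 were measured in this way among 19938 genes in all. The other 7 were Gbp2, Gbp6, Irgm2, Igtp, Tgtp1 and Isg15, which share every probe set with another symbol, and Ifi44, for which no probe set was used here. The list was drawn up with earlier results of these arrays known, so its values are given as a description.

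Gut tissue of ddY mice, which are outbred, was profiled on Affymetrix Mouse Gene 1.0 ST arrays, with 1 array for each of 5 groups. The mice were males of 5 weeks, received 2 oral doses 0.5 hours apart and were sampled 4 hours after the last one. GA+GA received gum arabic, the vehicle, in both doses, and LG21+GA received Lactobacillus gasseri OLL2716, a probiotic strain, with gum arabic. GA+Asp received gum arabic with aspirin, Tep+Asp teprenone, a drug that protects the gastric mucosa, with aspirin, and LG21+Asp the Lactobacillus strain with aspirin. The number of mice behind an array is not stated in the labels. No difference below is set against a spread between animals, and no p-value is given.

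Interferon gamma, made by T cells and natural killer cells, acts on target promoters through GAS elements. Type I interferons, made by many cells that sense viral nucleic acid, act through ISRE elements, with Stat2 and Irf9 among the factors that bind there. The programmes overlap. Guanylate binding proteins, immunity-related GTPases and the chemokine Cxcl9 respond strongly to interferon gamma, while the Ifit and Oas families respond mainly to type I interferon. In the gut, both programmes serve the defence of the epithelium against microbes.

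The promoters of 4 members are shown to set beside the values the 2 kinds of element through which interferons act, with and without matching letters. Gbp7 and Irgm1 are GTPase genes, and Ifit3 is a type I gene. Of the 32 measured members, Cxcl9 is the one with the largest difference in any of the 6 pairs of arrays compared. Each window runs from 250 bases before to 50 bases after a RefSeq transcription start of assembly GRCm38.p6. Gbp7 lies at chr3:142530086-142530385, plus strand, Irgm1 at chr11:48871371-48871670, minus strand, Ifit3 at chr19:34583279-34583578, plus strand and Cxcl9 at chr5:92328030-92328329, minus strand. Capitals mark the core letters of an ISRE, taken as GAAA, any 2 bases and GAAA again, on either strand, and those of a GAS element, taken as TTCNNNGAA, which reads alike on both strands. No ISRE match overlapped a GAS match in these windows.
Gbp7: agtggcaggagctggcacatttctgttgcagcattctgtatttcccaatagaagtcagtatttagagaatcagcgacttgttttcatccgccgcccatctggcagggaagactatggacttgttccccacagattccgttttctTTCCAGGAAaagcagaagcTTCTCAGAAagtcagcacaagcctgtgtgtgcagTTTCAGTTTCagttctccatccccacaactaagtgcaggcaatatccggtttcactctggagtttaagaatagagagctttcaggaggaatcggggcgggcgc
Irgm1: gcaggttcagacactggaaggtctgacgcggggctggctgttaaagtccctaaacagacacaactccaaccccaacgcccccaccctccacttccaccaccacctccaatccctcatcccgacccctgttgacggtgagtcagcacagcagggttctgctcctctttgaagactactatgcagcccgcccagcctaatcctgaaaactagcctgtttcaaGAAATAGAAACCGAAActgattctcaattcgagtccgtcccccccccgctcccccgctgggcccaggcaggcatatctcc
Ifit3: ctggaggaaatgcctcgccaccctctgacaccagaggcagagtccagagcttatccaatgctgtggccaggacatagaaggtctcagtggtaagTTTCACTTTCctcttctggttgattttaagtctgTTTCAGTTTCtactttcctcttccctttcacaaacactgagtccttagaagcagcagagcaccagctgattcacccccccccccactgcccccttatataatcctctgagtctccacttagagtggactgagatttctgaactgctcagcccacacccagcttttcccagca
Cxcl9: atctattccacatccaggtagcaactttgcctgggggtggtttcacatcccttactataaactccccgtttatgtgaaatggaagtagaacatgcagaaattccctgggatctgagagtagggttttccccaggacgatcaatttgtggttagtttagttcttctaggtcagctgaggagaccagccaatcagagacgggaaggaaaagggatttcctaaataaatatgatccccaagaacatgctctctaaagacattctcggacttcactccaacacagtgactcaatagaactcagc
Gbp7 held 2 GAS matches, starting 106 and 87 bases before the start site, and 1 ISRE match 53 bases before it. Irgm1 held 2 overlapping ISRE matches, 30 and 24 bases before the start, which print as 1 run of capitals. Ifit3 held 2 ISRE matches and no GAS match, and these letters did not occur in the Cxcl9 window.

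A promoter window was available for 29 of the 39 listed genes. The ISRE letters occurred in 16 of these 29, against 3.99% of all 27025 genes with a window, and the GAS letters in 8 of 29, against 9.55%. The matches did not part the classes. Of the interferon gamma type genes with a window (Gbp2, Gbp3, Gbp7, Cxcl9 and Irf1), 3 of 5 held ISRE letters and 2 held GAS letters. Of the type I genes with a window (Ifit1, Ifit2, Ifit3, Oasl1, Oasl2 and Isg15), 3 of 6 held ISRE letters and 1 held GAS letters. A match is a string of letters and not a shown binding site, and a missing match says nothing about the factor.

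The deposited log2 values had array medians from 6.94 to 6.98. Muc5ac, the mucin of gastric surface cells, stood between 13.29 and 13.34, and Atp4a, the proton pump of parietal cells, between 13.44 and 13.47. The 13 intestinal epithelium genes had a median level between 6.59 and 6.95, so the tissue labelled gut carried stomach markers at high level on every array. Exact ties between arrays occurred in 21 of the 32 members and in 77.7% of all genes. The table holds no detection calls, and Mx2, the member with the lowest values (5.10 to 5.15), stood close to Xist (4.88 to 4.91), which male tissue does not express.

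Over the 5 arrays the interferon genes were most often highest in LG21+GA and most often lowest in LG21+Asp. LG21+GA was strictly highest in 17 of the 32 members, against 13.7% of all genes. The lowest array was LG21+Asp in 13 of 32, against 15.9%, and GA+Asp in 9 of 32, against 18.0%. GA+Asp was strictly highest in 1 member, Ifit1, against 21.7% of all genes. The level of the median member was 7.33 on the LG21+Asp array, 7.42 for GA+GA, 7.46 for GA+Asp, 7.53 for Tep+Asp and 7.56 for LG21+GA. Most of these differences were small, and 24 of the 32 members differed by less than 1.2-fold in each of the 6 pairs of arrays compared below. At least 1.2-fold apart in 1 or more of those pairs were 8 of 32 members, against 7.33% of all genes. These were Gbp4, Gbp7, Iigp1, Irgm1, Cxcl9, Oasl1, Oasl2 and Tap1.

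**Figure D1:**
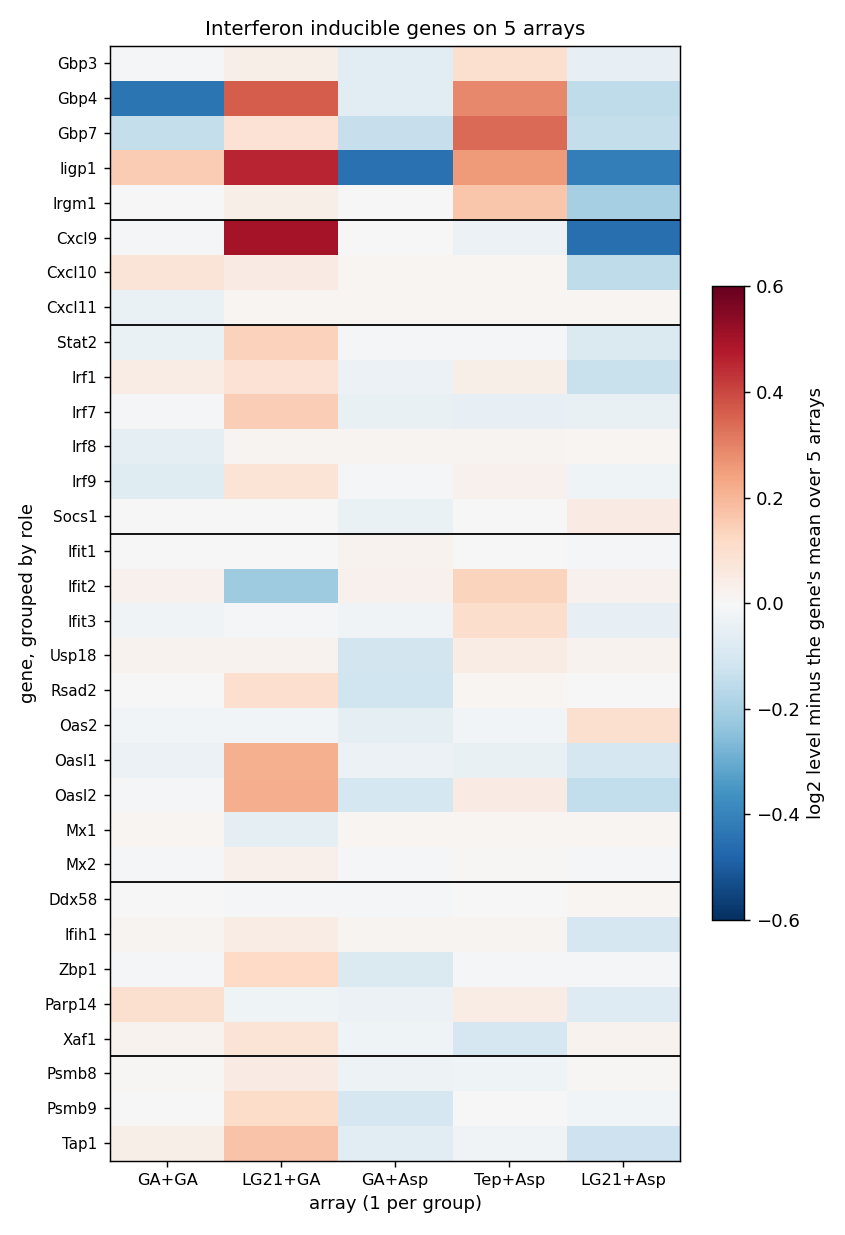
Deposited log2 level of each of the 32 measured genes (rows, grouped by role between black lines) on the 5 arrays (columns, 1 per group), shown as the difference from that gene's mean over the 5 arrays. Cells of Gbp4, Iigp1 and Cxcl9 are the most strongly coloured, and LG21+GA is the highest array in 17 of the 32 rows.

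**Figure D2:**
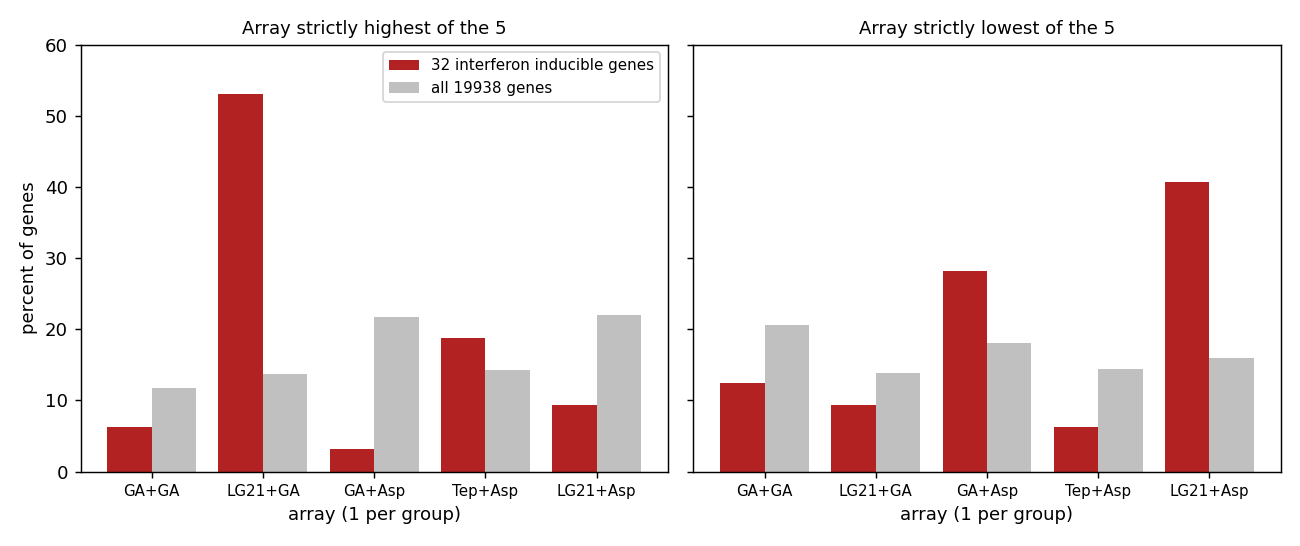
Percent of genes (vertical axis) for which each array (horizontal axis) is strictly the highest, left, or strictly the lowest, right, of the 5. Red bars are the 32 interferon inducible genes and grey bars all 19938 genes. LG21+GA is highest for 17 of 32 genes and LG21+Asp lowest for 13 of 32.

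Of the 5 measured GTPases, Gbp4, Gbp7, Iigp1 and Irgm1 were at least 1.2-fold apart in 1 or more pairs. Gbp4, a guanylate binding protein that acts on membranes around intracellular microbes, stood at 7.33 in GA+GA, 8.13 in LG21+GA, 7.70 in GA+Asp, 8.06 in Tep+Asp and 7.62 in LG21+Asp. Its level was thus high in LG21+GA and Tep+Asp, lowest in the control and between in the remaining arrays. Gbp7, of the same family, stood at 7.67 in GA+GA, 7.90 in LG21+GA, 7.67 in GA+Asp, 8.15 in Tep+Asp and 7.67 in LG21+Asp. The same arrays were high for Gbp7, and the other 3 lay within 0.01 of each other. Iigp1, an immunity-related GTPase that attacks the vacuoles of parasites and bacteria, stood at 6.94 in GA+GA, 7.25 in LG21+GA, 6.34 in GA+Asp, 7.04 in Tep+Asp and 6.37 in LG21+Asp. GA+Asp and LG21+Asp were the low arrays for Iigp1.

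Irgm1, a GTPase that regulates the others of its family, stood at 7.46 in GA+GA, 7.50 in LG21+GA, 7.46 in GA+Asp, 7.63 in Tep+Asp and 7.26 in LG21+Asp. Gbp3 stood at 6.99, 7.04, 6.93, 7.10 and 6.95 in the same order. In all 5 measured GTPases LG21+GA and Tep+Asp both lay above the other 3 arrays. This held for 11 of the 32 members, against 1.83% of all genes. The others were Irf9, Ifit3, Usp18, Rsad2, Oasl2 and Mx2. Some of these met it by a very small margin. In LG21+GA against GA+GA, Usp18 stood at 7.388 against 7.387 and Ifit3 at 7.860 against 7.853. Rsad2 stood at 6.729 in Tep+Asp against 6.722 in GA+GA. The order was noticed after the values were seen. It was not particular to the members. It also held in 5 of 12 stratified squamous genes, 4 of 12 endothelial and fibroblast genes and 9 of 48 other interferon inducible genes. Among 12 gastric epithelium genes and 12 hepatocyte genes it held in 0. Gbp3 and Gbp7 are next to each other in the RefSeq gene table, and members of both GTPase families resemble each other in sequence, so that a probe set may take up signal from a relative.

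Of the 6 probe sets that list several symbols, with 1 or more of the unmeasured members among them, 5 belong to the GTPase families, and their values can be given to no single gene. A pair shared within the Tgtp family had the widest differences. The first stood at 7.03 in GA+GA, 7.76 in LG21+GA, 7.13 in GA+Asp, 7.72 in Tep+Asp and 6.86 in LG21+Asp, and the second at 7.24, 8.07, 7.36, 7.94 and 7.02 in that order. LG21+GA and Tep+Asp were again the high arrays, and LG21+Asp was lowest in all 5 GTPase probe sets. The remaining shared probe set, of the Isg15 type, ran from 5.67 in GA+Asp to 5.94 in LG21+Asp and was equal (5.86) in the other 3.

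Among the chemokines that draw in T cells through the receptor Cxcr3, differences were found mainly in Cxcl9. It stood at 7.45 in GA+GA, 7.95 in LG21+GA, 7.45 in GA+Asp, 7.42 in Tep+Asp and 7.00 in LG21+Asp. LG21+GA was thus the high array and LG21+Asp the low one, with the other 3 within 0.03 of each other. Cxcl10, which answers to both kinds of interferon, ran from 6.83 in LG21+Asp to 7.06 in GA+GA. Cxcl11 was 6.37 in GA+GA and equal (6.42) on the other 4 arrays.

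The transcription factors and the feedback regulator Socs1 differed by less than 1.2-fold in each pair. Irf1, which carries the interferon gamma signal on to further genes, stood at 7.91 in GA+GA, 7.95 in LG21+GA, 7.83 in GA+Asp, 7.90 in Tep+Asp and 7.73 in LG21+Asp. Stat2 stood at 8.12, 8.29, 8.15, 8.15 and 8.07 in that order, and its partner Irf9 at 7.89, 8.05, 7.96, 7.99 and 7.94. Irf7, which amplifies the type I response, was 7.25 in LG21+GA and between 7.06 and 7.10 elsewhere. These 4 genes were each highest in LG21+GA. Irf8, a factor of myeloid cells, ran from 7.62 to 7.69, and Socs1, an inhibitor of Jak kinases, from 7.88 in GA+Asp to 7.97 in LG21+Asp.

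Of the antiviral effectors, Oasl1 and Oasl2 shared their highest and lowest arrays with Cxcl9. Oasl1, an oligoadenylate synthetase-like protein, stood at 10.41 in GA+GA, 10.66 in LG21+GA, 10.41 in GA+Asp, 10.40 in Tep+Asp and 10.35 in LG21+Asp. Oasl2, its neighbour in the genome, stood at 8.09, 8.32, 7.9996, 8.15 and 7.96 in the same order. Both were highest in LG21+GA and lowest in LG21+Asp. Oas2, which makes the second messenger that activates RNase L, was equal (6.69) in GA+GA, LG21+GA and Tep+Asp, with 6.65 in GA+Asp and 6.81 in LG21+Asp.

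The Ifit proteins, which bind foreign RNA, did not share one order. Ifit1 was equal (6.39) in GA+GA, LG21+GA and Tep+Asp, with 6.41 in GA+Asp and 6.38 in LG21+Asp. Ifit2 was 6.11 in LG21+GA, its lowest array, 6.46 in Tep+Asp and equal (6.35) in the other 3. Ifit3 stood at 7.85 in GA+GA, 7.86 in LG21+GA, 7.85 in GA+Asp, 7.98 in Tep+Asp and 7.82 in LG21+Asp. Ifit2 was thus the type I gene that lay lower in LG21+GA, where Oasl1 and Oasl2 lay higher. Usp18, which removes Isg15 from proteins, ran from 7.26 in GA+Asp to 7.41 in Tep+Asp, and Rsad2, an antiviral enzyme, from 6.60 in GA+Asp to 6.82 in LG21+GA. The dynamin-like Mx1 was 6.11 in LG21+GA and equal (6.17) on the other 4 arrays.

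The RNA sensors Ddx58 (8.26 to 8.29) and Ifih1 (7.62 to 7.76) differed little. Zbp1, a sensor of nucleic acid in the Z form, ran from 6.51 in GA+Asp to 6.72 in LG21+GA. Parp14, an ADP-ribosyl transferase, ran from 7.57 in LG21+Asp to 7.74 in GA+GA, and Xaf1, a promoter of cell death, from 6.62 in Tep+Asp to 6.80 in LG21+GA. The 3 genes of antigen processing, neighbours in the genome, were each highest in LG21+GA. Tap1, the peptide transporter, stood at 7.74 in GA+GA, 7.88 in LG21+GA, 7.64 in GA+Asp, 7.69 in Tep+Asp and 7.58 in LG21+Asp. The immunoproteasome subunits Psmb9 (8.09 to 8.30) and Psmb8 (6.74 to 6.82) were both lowest in GA+Asp.

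In the pair for the strain without aspirin, LG21+GA against GA+GA, 3 of the 6 interferon gamma type genes were at least 1.2-fold higher. Gbp4 was 1.74-fold, Cxcl9 1.42-fold and Iigp1 1.24-fold higher in LG21+GA. These were the members at least 1.2-fold higher, 3 of 32 against 0.712% of all genes, and 0 of 32 were at least 1.2-fold lower, against 1.38%. Over the 32 members the median difference was 0.05, with 24 above 0, 5 below and 3 equal. The median over all genes was 0.00, with 38.8% above 0. The 6 measured interferon gamma type genes (Gbp3, Gbp4, Gbp7, Iigp1, Cxcl9 and Irf1) were all above 0, with a median of 0.27. The 6 type I genes (Ifit1, Ifit2, Ifit3, Oas2, Oasl1 and Oasl2) had a median of 0.0037, with 3 above 0, 1 below and 2 equal, and ran from -0.24 for Ifit2 to 0.25 for Oasl1.

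Aspirin in mice given the strain, LG21+Asp against LG21+GA, had the largest differences of the members. Cxcl9 was 1.93-fold lower in LG21+Asp, Iigp1 1.83-fold, Gbp4 1.43-fold, Oasl2 1.29-fold, Oasl1 1.24-fold and Tap1 1.23-fold. These 6 of 32 were at least 1.2-fold lower, against 1.66% of all genes, and 0 were at least 1.2-fold higher, against 0.662%. The median difference over the members was -0.10, with 26 below 0 and 5 above, where 33.6% of all genes lay below 0. All 6 interferon gamma type genes lay below 0 (median -0.37), as did 4 of the 6 type I genes (median -0.02). LG21+GA enters both this comparison and the preceding one, with opposite signs.

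Aspirin without the strain, GA+Asp against GA+GA, gave differences in both directions. Gbp4 was 1.29-fold higher and Iigp1 1.51-fold lower in GA+Asp, so that 1 of 32 members was at least 1.2-fold higher, against 0.933% of all genes, and 1 was at least 1.2-fold lower, against 1.98%. Over all members the median was -0.02, with 18 of 32 below 0 and 8 above, where 31.4% of all genes lay below 0 and 42.4% above. The medians were -0.03 for the interferon gamma type genes and -0.0007 for the type I genes. Cxcl9 and Gbp7 both differed by 0.00. All 3 genes of antigen processing lay below 0, with a median of -0.10.

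The difference of the 2 aspirin comparisons, LG21+Asp against LG21+GA minus GA+Asp against GA+GA, was -0.96 for Cxcl9 and -0.89 for Gbp4. It was at least 1.2-fold below 0 in 5 of 32 members, against 2.28% of all genes, and at least 1.2-fold above 0 in 0, against 3.37%. Of the 32, 24 lay below 0, against 47.4%. The other 3 members were Oasl1 (-0.31), Iigp1 (-0.28) and Oasl2 (-0.27), of which Oasl2 came to -0.25 after quantile normalization or cyclic loess and was then under 1.2-fold. With 1 array in each group this difference has no test.

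The pair to which the series' title refers is LG21+Asp and GA+Asp, the strain ahead of aspirin. Cxcl9 was 1.37-fold lower in LG21+Asp, and it was the only measured member at least 1.2-fold lower, 1 of 32 against 1.28% of all genes. None of the 32 members was at least 1.2-fold higher, against 2.09%. Of the 6 shared probe sets, which are not in these counts, 3 were at least 1.2-fold lower in LG21+Asp. These were that of Gbp2 and Gbp2b (-0.34) and the pair of the Tgtp family (-0.27 and -0.34). The shared probe set of the Isg15 type was higher (0.26). The median over the members was -0.0021, with 16 below 0 and 11 above. Iigp1, low on both arrays, differed by 0.03, and Gbp4 by -0.09.

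With teprenone ahead of aspirin (Tep+Asp, set against GA+Asp), 3 of the 5 measured GTPases were at least 1.2-fold higher. Iigp1 was 1.63-fold, Gbp7 1.40-fold and Gbp4 1.28-fold higher in Tep+Asp, which made 3 of 32 members against 1.52% of all genes, and 0 were at least 1.2-fold lower, against 0.792%. Cxcl9 differed by -0.03. The median over the members was 0.04, with 21 above 0 and 5 below, where 34.6% of all genes lay above 0. Medians were 0.26 for the interferon gamma type and 0.07 for the type I genes.

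The strain and teprenone, both with aspirin, were set side by side in LG21+Asp against Tep+Asp. Iigp1 was 1.59-fold, Gbp7 1.40-fold, Gbp4 1.35-fold, Cxcl9 1.34-fold and Irgm1 1.29-fold lower in LG21+Asp. At least 1.2-fold lower were thus 5 of 32 members, against 1.16% of all genes, and 0 were higher by as much, against 1.33%. The median over the members was -0.05. All 6 interferon gamma type genes lay below 0, with a median of -0.43, and 5 of 6 type I genes did, with a median of -0.08. Tep+Asp enters this pair and the teprenone pair, and LG21+Asp enters this pair and both other pairs that contain it.

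**Figure D3:**
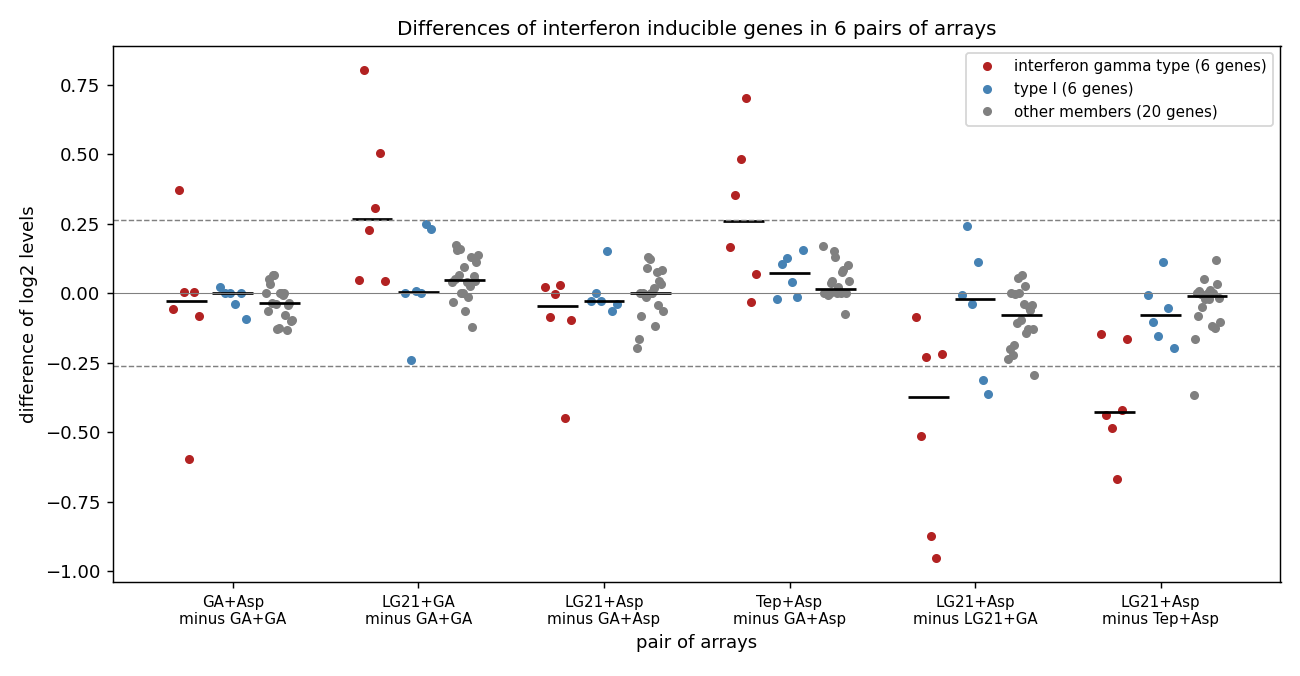
Difference of log2 levels (vertical axis) of each member in the 6 pairs of arrays (horizontal axis), with interferon gamma type genes in red, type I genes in blue and the other 20 members in grey. Black bars are medians and dashed lines mark 1.2-fold. The red median is 0.27 in LG21+GA minus GA+GA and -0.37 in LG21+Asp minus LG21+GA, and the blue medians lie between -0.08 and 0.07.

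Set against each other, the interferon gamma type genes exceeded the type I genes by 0.26 in median difference for the strain alone and by 0.19 for teprenone before aspirin. The gap was -0.35 for aspirin in mice given the strain and -0.35 for LG21+Asp against Tep+Asp. It was -0.03 for aspirin alone and -0.02 for the strain before aspirin. The gaps shrank with wider classes of 12 and 16 genes, to 0.05, 0.07, -0.17 and -0.14 for the first 4 pairs named. Among genes above the median level of all genes, which leaves out Ifit1, Ifit2 and Oas2 as well as Gbp3 and Iigp1, the gap for aspirin in mice given the strain was -0.06.

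**Figure D4:**
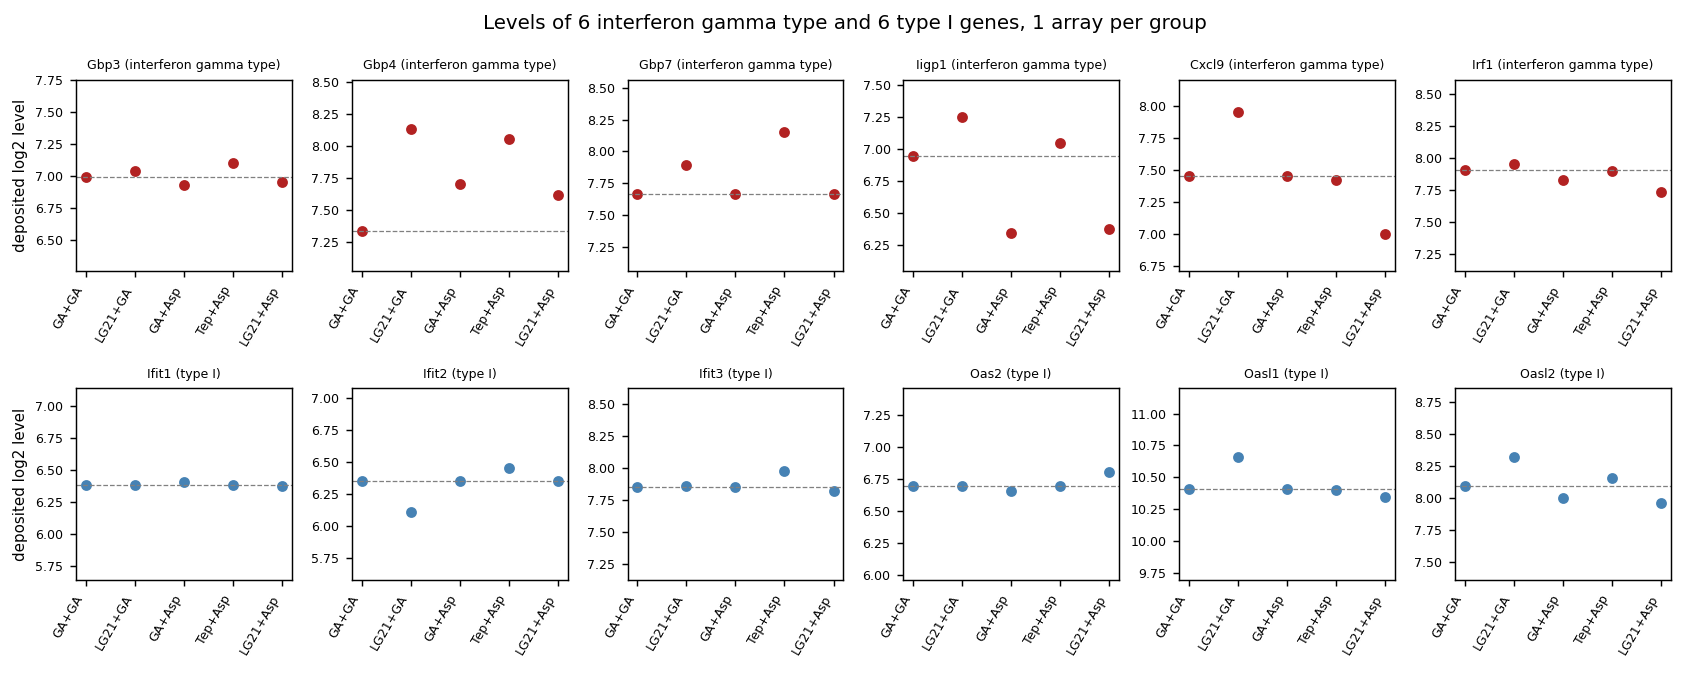
Deposited log2 level (vertical axes, each spanning 1.5 units around the gene's mean) of the 6 interferon gamma type genes, top, and the 6 type I genes, bottom, on the 5 arrays, with 1 point per array and a dashed line at the GA+GA value. Gbp4 runs from 7.33 to 8.13 and Cxcl9 from 7.00 to 7.95, while Ifit1 runs from 6.38 to 6.41.

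Of the 14 measured ligands, 1 was at least 1.2-fold apart in any of the 6 pairs, against 7.33% of all genes. Of the 24 measured receptors and signalling genes 0 were. The ligand was Ifne, a type I interferon of epithelia named here after its values were seen, which stood at 5.70 in GA+GA, LG21+GA and Tep+Asp, 5.44 in GA+Asp and 5.77 in LG21+Asp. It was 1.25-fold higher in LG21+Asp than in GA+Asp. Ifng, which encodes interferon gamma, stood at 5.97 on 4 arrays and 5.95 in GA+Asp, and Ifnb1, a type I interferon, at 5.34 on all 5. Both lay under the median level of all genes, and without detection calls such equal values say little about their expression. LG21+Asp was strictly highest in 7 of the 14 ligands, against 22.0% of all genes. In LG21+Asp against GA+Asp 10 of the 14 lay above 0 and 2 below, where 38.6% of all genes lay above 0. The interferon gamma receptor chains Ifngr1 (10.94 to 11.01) and Ifngr2 (11.11 to 11.23) and the type I receptor chains Ifnar1 (8.76 to 8.88) and Ifnar2 (9.02 to 9.09) had ranges under 0.13.

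A further 48 interferon inducible genes that are no members followed the same order in part. LG21+GA was strictly highest in 18 of the 48, against 13.7% of all genes, and LG21+Asp strictly lowest in 13, against 15.9%. In LG21+GA against GA+GA their median was 0.03, with 27 above 0 and 13 below, and 1 was at least 1.2-fold higher, against 0.712% of all genes. This was Gbp8 (5.19 to 5.49), which differed by 0.30. In LG21+Asp against LG21+GA their median was -0.06, with 31 below 0, and 2 were at least 1.2-fold lower, against 1.66% of all genes. These were Gm4951 (-0.49) and the helicase gene Ddx60 (-0.33).

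Markers of cells that could carry interferon genes were read on the same arrays. In bulk tissue, fewer cells of a type and less RNA per cell cannot be told apart. The 24 T and natural killer cell genes had a median difference of 0.0041 in LG21+GA against GA+GA, with 14 above 0 and 1 below, and 0.00 in LG21+Asp against LG21+GA. In the latter pair 1 of the 24 was at least 1.2-fold lower, against 1.66% of all genes, and 0 were higher by as much, against 0.662%. The lower one was Ccl5, highest in LG21+GA (8.31) and lowest in LG21+Asp (8.02), as for Cxcl9. The summed linear level of the 24 genes lay between 2030 and 2120 on the 5 arrays. Cd3e lay between 7.23 and 7.34 and Cd8a between 6.62 and 6.63, both under the median level of all genes. Macrophage and dendritic cell genes summed to between 3830 and 4110, highest in Tep+Asp, with Cd68 between 7.996 and 8.02 and Csf1r between 8.33 and 8.45. In Tep+Asp against GA+Asp, 2 of the 16 macrophage and dendritic cell genes were at least 1.2-fold higher, against 1.52% of all genes. These, named after their values were seen, were Xcr1 (0.40) and Mrc1 (0.33). In LG21+Asp against GA+Asp 2 of the 16 were as well, Itgax (0.33) and Xcr1 (0.32), against 2.09%. Xcr1 was lowest in GA+Asp (5.98), and Xcr1 and Itgax lay under the median level of all genes. Of the 9 B and plasma cell genes 1, Cd79a, was 1.27-fold higher in LG21+GA than in GA+GA, against 0.712% of all genes past 1.2-fold. It was 1.21-fold lower in LG21+Asp than in LG21+GA, against 1.66%. Of the 8 neutrophil genes 2 were at least 1.2-fold apart in these pairs, against 2.09% and 2.32%. Retnlg went the same way as Cd79a (0.28 and -0.32) and Ly6g the opposite way (-0.29 and 0.32). Cd79a, Retnlg and Ly6g lay under the median level. The part of these cells in the interferon values was not tested.

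Mast cell, stratified squamous, endothelial and fibroblast genes moved with some of the interferon genes, and hepatocyte genes differed in every pair. The 9 mast cell genes summed to 2250 in GA+GA, 2650 in LG21+GA, 2110 in GA+Asp, 2150 in Tep+Asp and 1850 in LG21+Asp. The sum was highest in LG21+GA and lowest in LG21+Asp, as for Cxcl9. Of the 9 genes, 5 were strictly highest in LG21+GA, against 13.7% of all genes, and 6 strictly lowest in LG21+Asp, against 15.9%. Mcpt1, a mucosal mast cell protease, had the widest range, with 8.45 and 6.40 on these arrays. Cma1 was highest in LG21+Asp (6.17) and Kit in GA+Asp (9.69). The 12 squamous genes summed to 7130 in GA+GA, 7210 in LG21+GA, 6010 in GA+Asp, 10600 in Tep+Asp and 2690 in LG21+Asp. Tep+Asp was highest and LG21+Asp lowest, as for Irgm1. Of the 12 endothelial and fibroblast genes, 11 were strictly highest in Tep+Asp, against 14.3% of all genes. In Tep+Asp against GA+Asp 11 of them lay above 0, against 34.6%, with a median of 0.14 and Pdgfra 1.32-fold higher. In LG21+Asp against Tep+Asp 11 lay below 0, against 33.6%, with a median of -0.12. The levels of all 5 measured GTPases likewise lay above those of GA+Asp and LG21+Asp in Tep+Asp.

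The 12 hepatocyte genes were read as markers of liver RNA, and the origin of their RNA was not tested. They summed to 24100 in GA+GA, 19600 in LG21+GA, 10100 in GA+Asp, 11400 in Tep+Asp and 15600 in LG21+Asp. Apoa1 (12.65 to 12.71) and Ttr (10.69 to 11.11) differed far less than Alb (7.43 to 12.69). Both enter the sum at high level, so it understates the differences of the others. The median difference of the 12 genes was -0.53 in LG21+GA against GA+GA, -0.70 in LG21+Asp against LG21+GA and -3.00 in GA+Asp against GA+GA. It was 1.49 in LG21+Asp against GA+Asp, 0.55 in Tep+Asp against GA+Asp and 0.87 in LG21+Asp against Tep+Asp, and 2.16 for the difference of the aspirin comparisons. For mast, squamous, endothelial, fibroblast and hepatocyte genes alike, their part in the interferon values was not tested.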

How the data were processed

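The authors deposited 1 table of log2 RMA expression values for 35557 probe sets on 5 arrays. RMA, which corrects background, normalizes arrays together and summarises each probe set, was run in Expression Console per the labels, though the series' design names another Affymetrix tool. Neither versions nor a genome build are named in the labels, and the log2 scale was read from the values (1.32 to 13.87). The platform annotation gave 1 symbol for 21789 probe sets, several for 1621 and none for 12147. All 32 measured members matched the RefSeq table under the same symbol.

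Deposited log2 values were subtracted within 6 pairs of arrays and differences counted at 1.2-fold (0.26 on the log2 scale) over all 19938 genes without a filter, since a filter at the median level of 7.41 would have kept 17 of the 32 members. With 1 array per group there is no test, and precision is limited by the number of arrays. Members, classes and lists were chosen with earlier results of these data known. Members were named with all 5 values where at least 1.2-fold apart in a pair or in a class, and pathway genes where so in a pair with LG21+GA. Summed levels are sums of the values taken out of log2. Alternatives used limma 3.58.1 in R 4.3.3 and other settings named at the end. Counting, in Python 3.11.15, was tested on simulated data.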

Additional observations from a re-analysis of the deposited data

Results flagged for a closer look

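Gbp4 is listed because its aspirin differences were opposite in the arrays without and with the strain, 0.37 in GA+Asp against GA+GA and -0.51 in LG21+Asp against LG21+GA, a change of -0.89. Cxcl9 is listed because its differences with the strain were opposite without and with aspirin, 0.50 in LG21+GA against GA+GA and -0.45 in LG21+Asp against GA+Asp, a change of -0.96. Each of these 4 differences was at least 1.2-fold, and with 1 array in each group neither change was tested.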

How the results depend on the processing

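Alternatives were run for the median over members, the count of members at least 1.2-fold apart and the gap between classes in each of the 6 pairs. Of 108 alternative values 79 stayed within 0.05 of the median or gap, or within 1.5 times the count. Of the medians and gaps 2 changed sign, both near 0, the gap for GA+Asp minus GA+GA from -0.03 to 0.0042 among genes above the median level and that for LG21+Asp minus GA+Asp from -0.02 to 0.0031 with probe sets averaged. The margin of 0.05 is wider than 4 of the 6 medians themselves. Within these margins quantile normalization and cyclic loess with 3 iterations moved 0 of 18 results each. RMA had already normalized the deposited values together, so little was left for these settings to change. Averaging a gene's probe sets could bear on Irf1 alone, as 31 of the 32 members have 1 probe set. Without the GBP, IRG, Oas, Ifit and Mx members the median went from 0.04 to 0.0085 for Tep+Asp minus GA+Asp, from -0.05 to -0.02 for LG21+Asp minus Tep+Asp and from -0.10 to -0.11 for LG21+Asp minus LG21+GA. Only genes above the median level gave medians of 0.11 for LG21+GA minus GA+GA, -0.22 for LG21+Asp minus LG21+GA and -0.12 for LG21+Asp minus Tep+Asp, a count of 1 for GA+Asp minus GA+GA, and gaps of 0.14, 0.086, -0.06 and -0.28 for LG21+GA minus GA+GA, Tep+Asp minus GA+Asp, LG21+Asp minus LG21+GA and LG21+Asp minus Tep+Asp. Fewer genes enter there. The mean in place of the median gave 0.10 for LG21+GA minus GA+GA, 0.091 for Tep+Asp minus GA+Asp, -0.16 for LG21+Asp minus LG21+GA and -0.11 for LG21+Asp minus Tep+Asp, and gaps of -0.10 for LG21+Asp minus GA+Asp and -0.42 for LG21+Asp minus LG21+GA. Wider classes gave gaps of 0.055, 0.071, -0.17 and -0.14 for LG21+GA minus GA+GA, Tep+Asp minus GA+Asp, LG21+Asp minus LG21+GA and LG21+Asp minus Tep+Asp. Shares of all genes are given at 1.2-fold only, so the counts at other folds cannot be set against all genes. At 1.1-fold the counts were 10 for LG21+GA minus GA+GA, 4 for LG21+Asp minus GA+Asp, 7 for Tep+Asp minus GA+Asp, 14 for LG21+Asp minus LG21+GA and 10 for LG21+Asp minus Tep+Asp. At 1.5-fold they were 1 for GA+Asp minus GA+GA, LG21+GA minus GA+GA, Tep+Asp minus GA+Asp and LG21+Asp minus Tep+Asp, 0 for LG21+Asp minus GA+Asp and 2 for LG21+Asp minus LG21+GA. The cause was not tested. No paired analysis was possible because each group had 1 array, and for the same reason no replicate could be left out.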

Other observations

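Other interferon inducible genes, chosen after their values were seen, were higher in Tep+Asp than in GA+Asp. Ido1, which breaks down tryptophan, stood at 5.97 in GA+GA, 6.01 in LG21+GA, 5.84 in GA+Asp, 6.27 in Tep+Asp and 5.94 in LG21+Asp. Gbp9 stood at 7.06, 7.27, 7.20, 7.52 and 7.16 in the same order, and Gbp11 at 5.55, 5.71, 5.13, 5.64 and 5.50. Gm4951 stood at 6.60, 6.70, 6.18, 6.67 and 6.22. GA+Asp and LG21+Asp were its low arrays, as for Iigp1. Of the 48 further inducible genes, 4 were at least 1.2-fold higher in Tep+Asp against GA+Asp, against 1.52% of all genes, and 0 lower, against 0.792%.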
